A study of Mus musculus with 20 samples.

Results

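Mast cells are tissue-resident blood cells that store proteases, histamine and serotonin in granules. They release them when IgE bound to its high-affinity receptor meets antigen, or when peptides act on Mas-related receptors. Their growth depends on the receptor Kit and its ligand, stem cell factor, and in adipose tissue they lie along vessels among the fat cells. The 10 genes described here cover the products such cells are known for, and are 10 of the 19505 genes measured. They are 4 granule proteases (Mcpt4, Cpa3, Tpsb2 and Cma1), 4 genes of surface receptors (Mrgprb1, Kit, Ms4a2 and Fcer1a) and 2 enzymes that make mediators (Hdc and Hpgds). They were listed by symbol after several of them had been seen among the largest falls of the knockout comparison in the depot labelled g. Their values in that comparison, and in every comparison that uses the same arrays, are therefore a description with no test. The sc arrays were not used for the choice, so the knockout comparison in sc carries the tests of the members. Earlier results of these data were known by then, so these tests are not shown to be independent of the choice. The spread in these tests is pooled over all 20 arrays, those of g included.

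Expression arrays measured total RNA of mouse adipocytes, which the labels describe as grown out of adipose tissue and turned into fat cells in vitro. There were 4 groups of 5 arrays each: wild type and Olfm2 knockout in the depot labelled sc, and the same genotypes in the depot labelled g. The labels neither expand sc and g nor give the age of the mice, the strain, the way the knockout was made or whether the samples came from separate animals or cultures. The p-values then measure the spread between these samples, which may be technical. Olfm2 encodes the secreted glycoprotein olfactomedin 2. Its signal, on the log2 scale of the arrays, was 4.28 to 5.25 in wild-type and 2.67 to 3.58 in knockout sc samples. In g samples it was 4.08 to 4.60 and 3.36 to 3.72. The genotypes did not overlap in either depot, but the signal was dim. Every knockout array and every wild-type g array read below the median of its own negative control probes. So did sc286WT and sc309WT, while sc287WT, sc307WT and sc308WT read above it. The separation in g thus lies wholly under that level and gives no fold of the transcript. The position of the Olfm2 probe relative to the deleted part is not stated in the labels.

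The 12 measured adipocyte markers had group means of 11.1 to 11.8, far above the array medians of 5.78 to 5.92. Such markers do not tell fat cells grown in vitro from fat tissue. Other cell types were present in the RNA. The mean of 13 macrophage markers was 8.29 to 9.74 across groups. The mean of 16 hepatocyte markers exceeded 7 on 8 arrays (sc300KO, sc318KO, g286 WT, g308 WT and 4 of the 5 knockout g arrays, all but g300 KO). That of 10 lymphocyte markers exceeded 8 on 3 arrays (sc286WT, sc317KO and sc320KO), and that of 12 skeletal muscle markers exceeded 7 on 4 (sc286WT, sc307WT, sc317KO and sc320KO). In such bulk samples, fewer mast cells and less RNA of these genes per cell cannot be told apart.

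The members lie on 9 chromosomes of mouse assembly GRCm38.p6, with the 2 chymase genes Cma1 (chr14:55941451-55944675) and Mcpt4 (chr14:56059744-56062310) in one cluster. The 250 bases before the start of 4 members are shown because they are the ones that hold the letters AGATAA or TGATAA on either strand, a motif bound by GATA factors, which are regulators of mast cell genes. The sequences are those of RefSeq, 5′ to 3′ on the strand of the gene, and capitals mark the motif or its complement.
Mcpt4, chr14:56062311-56062560, minus strand: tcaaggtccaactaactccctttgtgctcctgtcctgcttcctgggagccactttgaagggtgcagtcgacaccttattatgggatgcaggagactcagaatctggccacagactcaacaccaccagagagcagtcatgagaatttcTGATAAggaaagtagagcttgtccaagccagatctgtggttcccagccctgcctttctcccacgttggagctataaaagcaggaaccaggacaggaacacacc
Cpa3, chr3:20242182-20242431, minus strand: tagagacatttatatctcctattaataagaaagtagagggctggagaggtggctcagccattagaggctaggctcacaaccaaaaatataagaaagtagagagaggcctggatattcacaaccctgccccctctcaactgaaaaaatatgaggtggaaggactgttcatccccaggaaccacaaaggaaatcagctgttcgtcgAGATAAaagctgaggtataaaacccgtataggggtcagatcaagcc
Ms4a2, chr19:11623720-11623969, minus strand: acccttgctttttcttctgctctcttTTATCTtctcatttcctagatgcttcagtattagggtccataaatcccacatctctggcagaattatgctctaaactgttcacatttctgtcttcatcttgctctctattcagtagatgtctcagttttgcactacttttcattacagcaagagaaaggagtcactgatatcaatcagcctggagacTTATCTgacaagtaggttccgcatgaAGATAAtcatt
Fcer1a, chr1:173227230-173227479, minus strand: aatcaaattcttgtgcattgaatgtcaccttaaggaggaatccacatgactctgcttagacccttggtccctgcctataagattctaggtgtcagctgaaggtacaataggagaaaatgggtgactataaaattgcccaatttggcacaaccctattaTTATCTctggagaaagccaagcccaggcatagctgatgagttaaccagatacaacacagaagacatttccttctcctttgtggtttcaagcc

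A promoter window of 300 bases, 250 before and 50 after the start, was found for 9 of the 10 members. The GATA motif was in 4 of these 9 genes, and in 18.6% of all 32851 windows. Counted from the start, it began at -103 in Mcpt4 and at -46 in Cpa3, and Ms4a2 held it at 3 places. The E-box CAGCTG was in Cpa3 and Fcer1a and in 16.3% of all windows. The E-box CACGTG, a form bound by the factor Mitf among others, was in 0 of the 9 genes and in 7.15% of all windows. No other E-box was searched for, so this count does not show whether the windows lack Mitf sites. Neither E-box shares letters with the GATA motif in these windows. A match is a description of letters in a window, and with 9 genes these counts are small.

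Of the members, the proteases Mcpt4 and Cpa3 had the largest differences between genotypes in g. Mcpt4 encodes mast cell protease 4, a chymase of connective tissue mast cells. In wild-type g samples its log2 signal was 8.99, 8.53, 9.72, 8.41 and 9.16 on g286, g287, g307, g308 and g309 WT, and in knockout g samples 4.76, 7.06, 6.75, 6.37 and 6.61 on g300, g306, g317, g318 and g320 KO. Every wild-type g array was above every knockout g array, and g300 KO lay far below the other four. The sc arrays read 7.28, 6.46, 6.54, 6.71 and 7.03 in wild type (sc286WT, sc287WT, sc307WT, sc308WT and sc309WT) and 5.52, 5.42, 6.98, 5.37 and 6.40 in knockout (sc300KO, sc306KO, sc317KO, sc318KO and sc320KO). Among these, sc317KO reached into the wild-type range and the other four knockout arrays were lower than any wild-type one. The group means were 6.81 ± 0.34 and 5.94 ± 0.72 in sc and 8.96 ± 0.53 and 6.31 ± 0.90 in g (wild type and knockout, SD, n = 5). The knockout difference in g was -2.65 (SE 0.38 of the fit), a 6.28-fold lower array signal. All arrays were above the median of the negative control probes for this gene. Above their 95th percentile were 5 of 5 wild-type g arrays, but 0 of 5 in each other group.

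Cpa3, the mast cell carboxypeptidase, followed the same course. With the g arrays in the order given above, the wild-type ones read 9.89, 9.63, 10.63, 9.66 and 10.26, and the knockout ones 6.36, 7.76, 7.80, 7.54 and 7.48. The genotypes were wide apart, and 4 of the 5 knockout arrays sat within a narrow band with g300 KO below it. The sc arrays read 7.57, 6.77, 6.98, 7.35 and 7.42 in wild type, and 6.26, 5.91, 7.49, 5.95 and 6.96 with the knockout. Here sc317KO was again the highest knockout array, and the genotypes overlapped. The means were 7.22 ± 0.33 and 6.51 ± 0.69 in sc and 10.01 ± 0.43 and 7.39 ± 0.59 in g, with a difference of -2.63 (SE 0.31) in g.

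Tpsb2 encodes a tryptase, a protease stored in complex with heparin. Its signal on the g arrays was 9.81, 9.21, 10.46, 9.18 and 9.97 in wild type, but 6.87, 7.81, 7.91, 7.68 and 7.42 in knockout, without overlap. The sc arrays showed 7.64, 7.23, 7.40, 7.66 and 7.95 in wild type against 6.84, 6.53, 7.64, 6.65 and 7.09 in knockout, where only sc317KO reached the wild-type values. Cma1, the second chymase of the list, was 7.24, 6.64, 7.62, 6.77 and 7.42 in the wild-type and 4.85, 5.48, 5.47, 5.94 and 5.44 in knockout g samples. Every sc sample lay below every wild-type g sample, at 4.92 to 5.85 for wild type and 4.85 to 5.57 for knockout. The knockout differences in g were -2.19 (SE 0.25) for Tpsb2 and -1.70 (SE 0.22) for Cma1. Cma1 exceeded the 95th percentile of the negative control probes on 2 of 5 wild-type and 0 of 5 knockout g arrays.

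**Figure D1:**
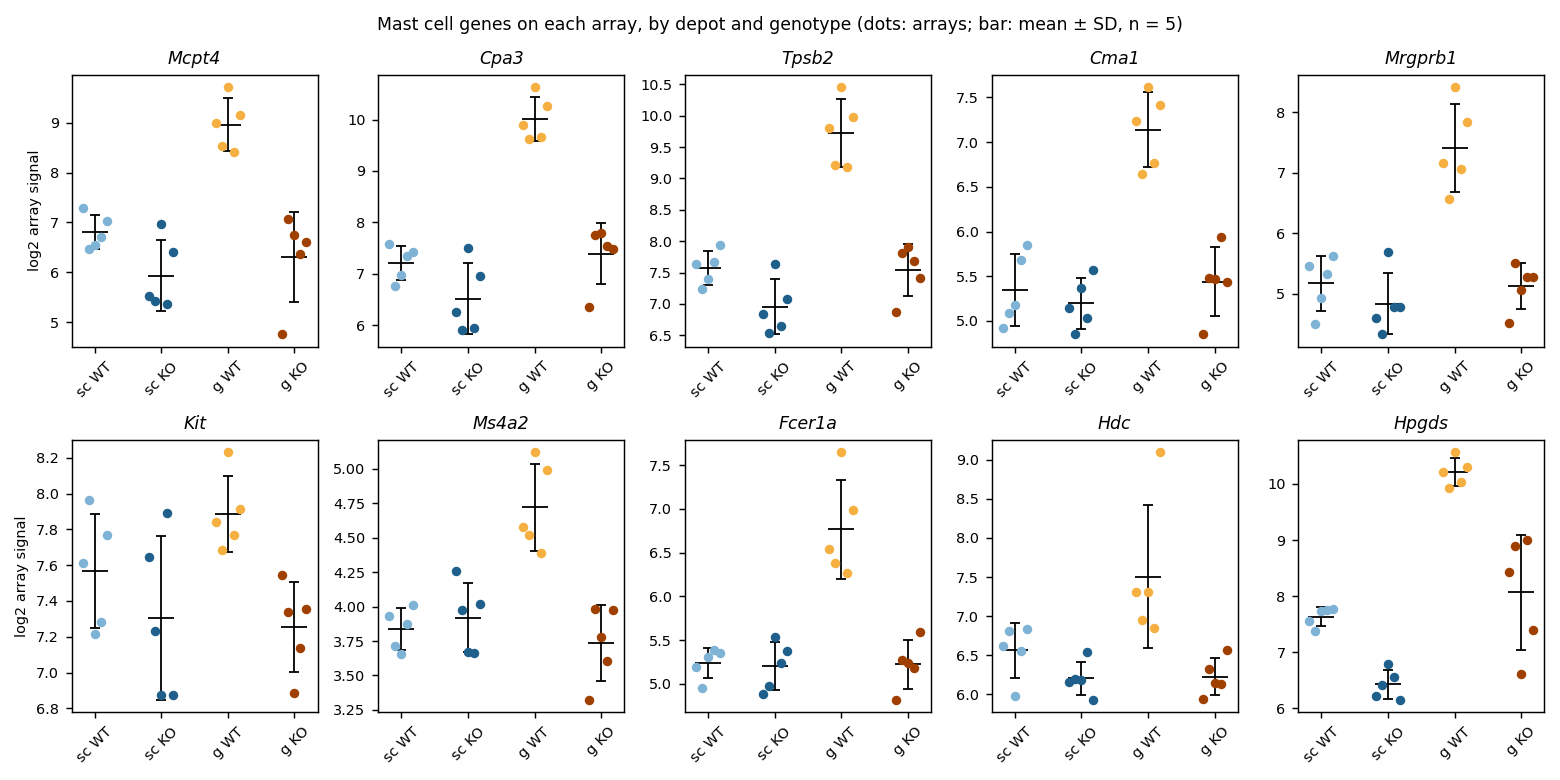
Log2 array signal (vertical axis) of the 10 mast cell genes in sc wild-type, sc knockout, g wild-type and g knockout samples; each dot is 1 array, and the bar is the mean with the SD of 5 arrays. For all 10 genes the g wild-type arrays lie above the g knockout arrays, and for 9 of 10 (all but Kit) also above the sc wild-type arrays.

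Of the receptors, Mrgprb1, a member of the Mas-related receptor family, had the largest difference. It exceeded the 95th percentile of the negative control probes on 2 of 5 wild-type and 0 of 5 knockout g arrays. On g300 KO it lay below the median of these probes (4.70). It was 7.16, 6.57, 8.42, 7.06 and 7.84 on the wild-type and 4.51, 5.51, 5.07, 5.28 and 5.27 on the knockout g arrays, a difference of -2.28 (SE 0.31). The sc means were 5.17 ± 0.45 (wild type) and 4.83 ± 0.51 (knockout), and the lowest wild-type g array was above the highest sc array of either genotype (5.68). Fcer1a, the IgE-binding alpha chain of the high-affinity receptor, was 6.54, 6.38, 7.65, 6.27 and 6.99 on the wild-type g arrays and 4.82, 5.27, 5.24, 5.18 and 5.60 on the knockout ones. The other 3 groups had nearly the same mean. It was 5.24 ± 0.17 in sc wild type, 5.20 ± 0.27 in sc knockout and 5.22 ± 0.28 in g knockout. Fcer1a exceeded the 95th percentile of the control probes on 1 of 5 wild-type and 0 of 5 knockout g arrays. Ms4a2, the beta chain of that receptor, was dim: outside the wild-type g group it lay below the median of the negative control probes (4.45 to 4.84) on every array, and above it on 2 of 5 wild-type g arrays. Its means were 4.72 ± 0.32 and 3.73 ± 0.28 in g, wild type and knockout, and the difference of -0.99 (SE 0.16) gives no fold of the transcript.

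Kit, the receptor of stem cell factor, differed least. Its wild-type g arrays read 7.84, 7.68, 8.23, 7.77 and 7.91 and its knockout g arrays 7.55, 7.34, 6.89, 7.13 and 7.35, a difference of -0.63 (SE 0.19) without overlap. In sc it ranged from 7.21 to 7.97 in wild type and from 6.88 to 7.89 in knockout, which covers most of the g values of both genotypes. It was the one member whose wild-type g arrays overlapped the wild-type sc arrays. Kit is also made by cells other than mast cells.

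Hdc makes histamine from histidine. It was 7.31, 6.95, 7.30, 6.85 and 9.10 on the wild-type and 5.94, 6.33, 6.15, 6.14 and 6.57 on the knockout g arrays, a difference of -1.28 (SE 0.30). One array, g309 WT, carried much of the height: without it the difference was -0.88. Hdc exceeded the 95th percentile of the negative control probes on 2 of 5 wild-type and 0 of 5 knockout g arrays. Hpgds makes prostaglandin D2 and is known from mast cells as well as macrophages. It was 10.22, 9.93, 10.57, 10.03 and 10.31 on the wild-type and 8.43, 8.89, 6.62, 9.0 and 7.41 on the knockout g arrays, a difference of -2.14 (SE 0.32). The wild-type arrays lay close together, while the knockout arrays spread widely, with an SD of 1.03. The array g300 KO, which was the lowest for 8 of the 10 members, was not the lowest here.

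Side by side, all 10 members were lower in every knockout than in every wild-type g array, a separation seen in 5.73% of the 19505 genes. Nothing is read from this count, since the members were chosen from this comparison. Their median difference was -1.92, and that of all genes 0.02. With the macrophage mean as a covariate the median of the members was -0.95. The macrophage means did not overlap between genotypes in g (9.52 to 9.98 against 8.83 to 9.32), and this covariate and the genotype cannot be told apart there. Without the 8 arrays with hepatocyte transcripts the median was -2.28, but g300 KO was then the only knockout g array left, with its spread taken from the other groups.

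The knockout comparison in sc tested the members on arrays that were not used to choose them. Earlier results of these data were known at the choice, however, and the spread was pooled over all 20 arrays. With limma and Benjamini-Hochberg adjustment over all genes, 0 of the 10 were called at an adjusted p under 0.05, and 132 of all genes (0.677%) were. At an unadjusted p under 0.05, 4 of 10 were lower, against 5.76% of all genes. The differences were below 0 for 9 of 10 members, with a median of -0.35 against 0.01 for all genes. With the hepatocyte, lymphocyte and muscle means as covariates the median was -0.68, and with the macrophage mean -0.19. These members move together over arrays, so the 9 are not 9 separate observations. Differences ran from -1.20 to 0.08. The test of the difference between depots is not given for members because it contains the g comparison.

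Hpgds came nearest to a call in sc. It was 7.55, 7.37, 7.74, 7.76 and 7.76 in wild-type and 6.23, 6.42, 6.79, 6.56 and 6.16 in knockout sc samples. Every knockout array was lower than every wild-type one, as for 1.53% of all genes. The difference was -1.20 (SE 0.32, 95% interval -1.87 to -0.54, limma adjusted p = 0.0938). An exact permutation test, two-sided, gave p = 0.00794, the smallest that 5 against 5 arrays can give. The gene passed the threshold when only the 2 sc groups were fitted (limma adjusted p = 0.00702), with array weights (0.0247), without g317 KO (0.0104) and without the hepatocyte-high arrays (0.0139). With only the sc groups the SE was 0.13, as the wider spread of the knockout g arrays was then left out. The adjusted p ranged from 0.00702 to 0.516 over all alternatives. With the macrophage mean as a covariate the difference was -0.66 (limma adjusted p = 0.409). The macrophage mean itself was 8.54 ± 0.16 in wild-type and 8.29 ± 0.18 in knockout sc samples, and its part in the result was not tested further.

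Among the proteases in sc, Mcpt4 differed by -0.87 (95% interval -1.66 to -0.08, limma adjusted p = 0.404, exact permutation p = 0.0556). For Cpa3 the difference was -0.70 (-1.34 to -0.07, limma adjusted p = 0.403, exact permutation p = 0.103). Tpsb2 differed by -0.62 (-1.14 to -0.10, limma adjusted p = 0.342, exact permutation p = 0.0397). In each of these 3, sc317KO was the highest knockout array, and without it the differences of Mcpt4 and Cpa3 were -1.13 and -0.95. That array also had a high mean of lymphocyte and muscle markers. With the hepatocyte, lymphocyte and muscle means as covariates the differences were -1.50 for Mcpt4 and -1.23 for Cpa3, and neither was called. The intervals allow a Mcpt4 signal up to 3.15-fold lower in knockout sc samples.

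The other 6 members differed by less in sc. Hdc was lower by a difference of -0.36 (95% interval -0.98 to 0.26), Mrgprb1 by -0.33 (-0.98 to 0.31) and Kit by -0.26 (-0.66 to 0.14). Cma1 differed by -0.15 (-0.61 to 0.31), Fcer1a by -0.04 (-0.47 to 0.40) and Ms4a2 by 0.08 (-0.24 to 0.41). Each interval includes 0, and their limma adjusted p ran from 0.700 to 0.976. Kit aside, 0 of 5 arrays in either sc group exceeded the 95th percentile of the negative control probes for these members. Mrgprb1 was above the control median on 4 of 5 wild-type and 3 of 5 knockout sc arrays, and Ms4a2 on 0. Small differences at such signals cannot be set against those of brighter genes.

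**Figure D2:**
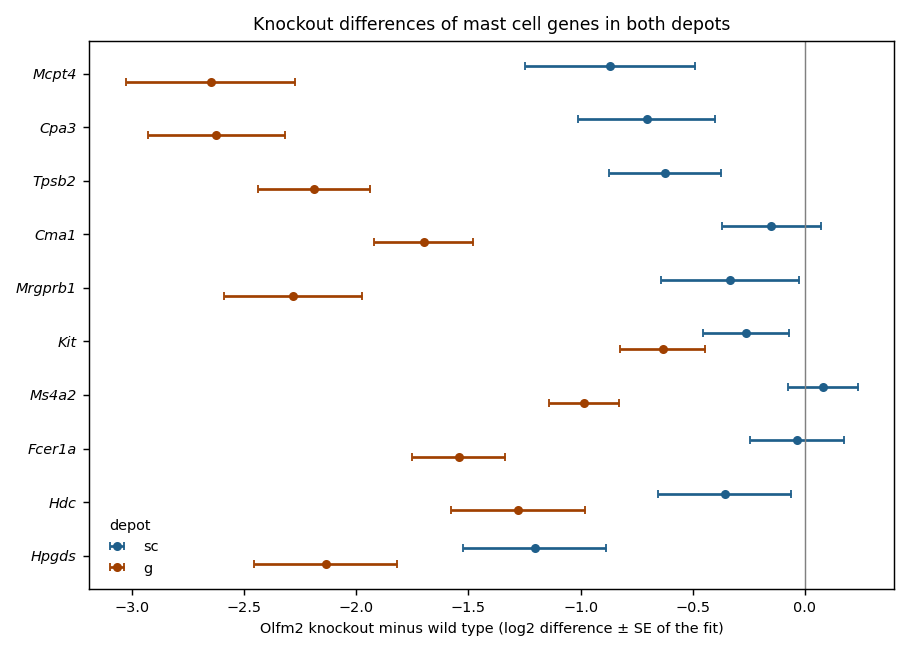
Difference in log2 signal between Olfm2 knockout and wild-type samples (horizontal axis, dots with the SE of the fit) for the 10 mast cell genes in the sc and g depots, 5 arrays per group. In g the differences run from -2.65 for Mcpt4 to -0.63 for Kit; in sc they run from -1.20 for Hpgds to 0.08 for Ms4a2.

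The members shared the order of the 4 groups in part. The wild-type g group had the highest mean for all 10. The sc knockout group had the lowest mean for 8, and the g knockout group for the other 2 (Kit and Ms4a2). The wild-type sc group came second for 6. The lower 3 means spanned 0.04 for Fcer1a and 0.19 for Ms4a2, but 0.87 for Mcpt4 and Cpa3 and 1.64 for Hpgds. The knockout g arrays overlapped the wild-type and the knockout sc arrays for 10 of 10 members each, as for 93.7% and 95.7% of all genes.

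Between depots the members stood higher in g than in sc in wild type. For 9 of 10 every wild-type g array was above every wild-type sc array, a separation shown by 8.73% of all genes, and the median difference was 1.97. It was largest for Cpa3 (2.80, a 6.94-fold higher signal), Hpgds (2.57) and Mrgprb1 (2.24) and smallest for Kit (0.32). With the macrophage mean as a covariate it was 1.66 for Cpa3, 0.82 for Mcpt4, 0.28 for Mrgprb1, -0.07 for Hpgds and -0.22 for Hdc. In knockout samples the median depot difference was 0.27, and 0 of 10 were separated, against 2.31% of all genes separated with g higher. Hpgds had the largest remaining depot difference there, 1.64, and Cpa3 came next with 0.87. With the macrophage mean as a covariate these were -0.07 and 0.14. Without the hepatocyte-high arrays, which leaves g300 KO alone in its group, Cpa3 differed by -0.43 and Mcpt4 by -1.51. The macrophage means did not overlap between depots in either genotype (8.34 to 8.70 in wild-type and 8.15 to 8.54 in knockout sc samples), so this covariate and the depot cannot be told apart. These comparisons share the g arrays with the one that chose the members and are given side by side with no test.

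Within groups, how tightly the members moved together differed from gene to gene. Each value was centred on the mean of its group, and Pearson's r was taken over the 20 arrays, as a description without a p. The arrays share their groups and hold RNA of several cell types. The 45 pairs had a median r of 0.36, from -0.42 to 0.96, and 38 were above 0. The 6 pairs of proteases had a median of 0.84, with 0.63 the lowest (Mcpt4 with Cma1) and 0.96 the highest (Mcpt4 with Cpa3). Without g300 KO and sc317KO, the 2 arrays farthest from the median of Mcpt4, the last value was 0.95. By depot, the protease pairs had a median r of 0.78 over the 10 sc arrays and 0.88 over the 10 g arrays, and all pairs 0.22 and 0.53.

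Mrgprb1 and Fcer1a moved with the proteases, with an r of 0.91 and 0.80 against the mean of the other 9 members. Ms4a2 had 0.61. Its pairs with the other members had a median r of 0.82 over the g arrays and -0.0027 over the sc arrays, which all lay under the negative control median for this gene. Hdc (0.40), Hpgds (0.16) and Kit (-0.08) were the members that followed the others least. Kit was lower on arrays where Cpa3 was higher (r = -0.42). By depot this r was -0.62 over the sc arrays and -0.09 over the g arrays. Beside these, Kit followed the mean of the endothelial markers (r = 0.64, and 0.51 without sc317KO and sc320KO). The proteases ran against that mean, with an r of -0.82 for Cpa3, -0.76 for Tpsb2, -0.71 for Mcpt4 and -0.66 for Cma1. Hpgds followed the macrophage mean most closely of the members (0.75, and 0.69 without g318 KO and sc317KO). The mean of the 10 members had an r of 0.58 with the macrophage mean. The members other than Hpgds ran from 0.01 (Kit) to 0.57 (Mrgprb1). The r of Hdc with the neutrophil mean was 0.78, but 0.42 without g309 WT and sc286WT, so it rests on those arrays. The mean of the 10 members ran against the adipocyte mean within groups (r = -0.74, and -0.75 without g307 WT and sc286WT).

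**Figure D3:**
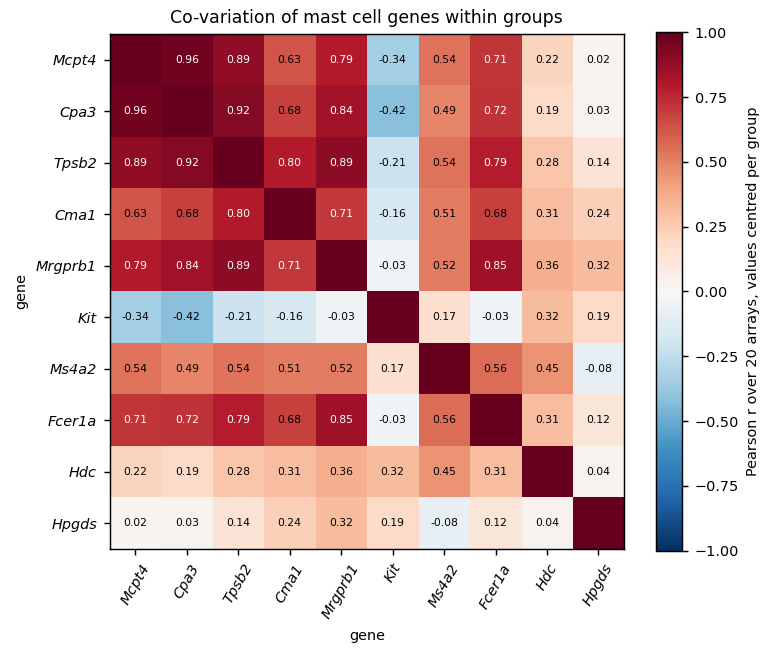
Pearson correlation (colour and printed value) between the 10 mast cell genes, rows and columns, over 20 arrays with each value centred on the mean of its group. Mcpt4, Cpa3, Tpsb2, Cma1, Mrgprb1 and Fcer1a form a block of high values, while Kit, Hdc and Hpgds show low or negative ones.

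Single arrays stood high or low for many members at once. In wild-type g samples g307 WT was the highest for 9 of 10 members, all but Hdc. In knockout g samples g300 KO was the lowest for 8 of 10. In sc, sc317KO was the highest knockout array for 6 and sc309WT the highest wild-type array for 6, while sc287WT was the lowest wild-type array for 6.

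Of the genes outside the list, Vps4b was most like the mean of the 10 members over the 20 centred arrays (r = 0.87), a gene of membrane scission. Snx1, a sorting nexin, had 0.86, and Sf3a3, Fundc1, Tph1, Pilrb2, Supt3, Tram1, Mthfsl and Pla2g4a followed with 0.81 to 0.76. One predicted or receptor-family gene was passed over. The 10 most alike for the mean of the 4 proteases alone were other genes, led by Fnip1 (0.84), with 0 of 10 shared. Of the first 10, only Tph1 is on the wider mast cell list. Tph1 makes serotonin in mast cells. It was 5.69, 5.28, 7.41, 5.45 and 6.58 on the wild-type g arrays and 4.11, 5.39, 4.53, 4.76 and 4.41 on the knockout ones, with its highest value on g307 WT and its lowest on g300 KO, as for most members.

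A wider list of mast cell genes was followed through the same comparisons. It has 57 genes, of which 52 were measured, and it was written with the members' fall in g already known. In g, 16 of 52 fell and 1 rose, where 6.27% of all genes fell and 5.01% rose. The median difference was -0.25, and that of all genes 0.02. In sc, 0 of 52 were called and 4 had an unadjusted limma p under 0.05, as had 10.3% of all genes. With the macrophage mean as a covariate, 0 of 52 were called lower in g, and so were 0 of all 19505 genes. That count therefore says nothing particular to this list. The differences with this covariate were -0.62 for Slc18a2, -0.996 for Tpsab1 and -0.50 for Tph1. Without the hepatocyte-high arrays, which leaves g300 KO alone in its group, they were -0.62, -1.25 and -2.32. Without these changes they were -0.70, -0.86 and -1.44. The hepatocyte mean as a covariate left 10, without Alox5ap, Tgfb1, Btk, Syk, Inpp5d and Tnf. With it, 643 of all 19505 genes were called lower. In the g comparison, without covariates, the macrophage markers fell too, 10 of 13 lower and 1 higher, and 8 of 12 adipocyte markers rose. Several of the genes called, such as Fcer1g, Syk and Csf2rb, are also used by macrophages, and the part of these cells in the result was not tested.

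The other proteases of the list mostly stayed at background. Tpsab1, the second tryptase, fell from 5.26 ± 0.27 to 4.40 ± 0.33 in g (difference -0.86, SE 0.17, limma adjusted p = 0.00228). The 4 protein-coding genes that lie between Cma1 and Mcpt4 in the chymase cluster were not called: Mcpt1 differed by -0.39, Mcpt2 by 0.15, Mcpt9 by 0.11 and Cma2 by -0.28. Their wild-type g means were 3.34 to 4.30, below the medians of the negative control probes on those arrays. Tpsg1 (-0.23) and Gzmb (-0.09), the brightest of this group, were not called either. Ctsg, cathepsin G, differed by -0.22.

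Of the other receptors, 4 of 7 fell and 1 rose. Mrgprb2, the receptor through which peptides and drugs activate mouse mast cells, was called lower (limma adjusted p = 0.0012). It was 5.03, 4.32, 5.78, 4.09 and 4.92 in wild-type g samples and 3.18 to 3.83 on the knockout g arrays, and all 5 of these and 2 of the wild-type ones lay under their negative control medians. The difference of -1.24 (SE 0.22) gives no fold of the transcript. Fcer1g, the signalling chain shared by the IgE receptor and the Fc receptors of macrophages, fell from 11.00 ± 0.23 to 9.91 ± 0.49 (limma adjusted p = 0.000586). The shared cytokine receptor chain Csf2rb fell by 0.72 and the granule membrane protein Cd63 by 0.55. Ptger3, a prostaglandin E2 receptor that adipocytes also make, rose by 0.63 (SE 0.18, limma adjusted p = 0.0307). In sc, Fcer1g differed by -0.53 without overlap (limma adjusted p = 0.221).

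Among granule and mediator genes 3 of 9 fell. Tph1 differed most (-1.44, SE 0.30, limma adjusted p = 0.00385), with overlap of the genotypes through g306 KO. Slc18a2, which loads histamine and serotonin into vesicles, fell by 0.70 (SE 0.11, limma adjusted p = 0.000514). Alox5ap, the helper of leukotriene synthesis, fell by 0.59. Srgn, the proteoglycan core that holds proteases in the granule, was bright in all groups and differed by -0.40 (limma adjusted p = 0.0779). Ltc4s, the leukotriene C4 synthase, differed by 0.25 and was not called.

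The transcription factors were split. Runx1 fell by 1.25 (SE 0.20, limma adjusted p = 0.000503) and Mitf, which mast cell development requires, fell by 0.89 (SE 0.17, limma adjusted p = 0.00174). Gata1 (-0.06), Gata2 (-0.21), Tal1 (0.03), Stat5a (0.03) and Stat5b (0.22) were not called. Both that fell have roles in other myeloid cells. When the macrophage mean was in the fit, Runx1 differed by -0.56 (SE 0.30) and Mitf by -0.14 (SE 0.21).

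In signalling below the IgE receptor 4 of 9 fell. The adaptor Lat2 fell by 1.42 (SE 0.28, limma adjusted p = 0.00219). The kinases Btk (-1.28) and Syk (-0.75) and the phosphatase Inpp5d (-0.86) fell as well, named here after their values were seen. These last 3, with Tnf and Ptger3, lost their calls when g307 WT, g309 WT, g317 KO or g320 KO was left out singly. Without g286 WT, Inpp5d, Syk, Tnf and Ptger3 lost theirs, as did Inpp5d without g300 KO and Ptger3 without g306 KO. Plcg1 differed by 0.25 (limma adjusted p = 0.0511) and Gab2 by -0.06. Lat2 had a value of 7.23 on g318 KO against 7.27 on g308 WT, so the genotypes barely separated.

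Of the ligands, Kitl, which encodes stem cell factor, had means of 9.73 ± 0.14 and 9.48 ± 0.20 in wild-type and knockout g samples, a difference of -0.26 that was not called (SE 0.14, limma adjusted p = 0.280). Il33 differed by -0.46 (limma adjusted p = 0.258). Tgfb1 fell by 0.56 (SE 0.14, limma adjusted p = 0.00996). Among cytokines Tnf fell by 1.02 (SE 0.31, limma adjusted p = 0.0343), and Il13 differed by 0.09. Il4, Il5, Il6 and Csf2 were not called.

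**Figure D4:**
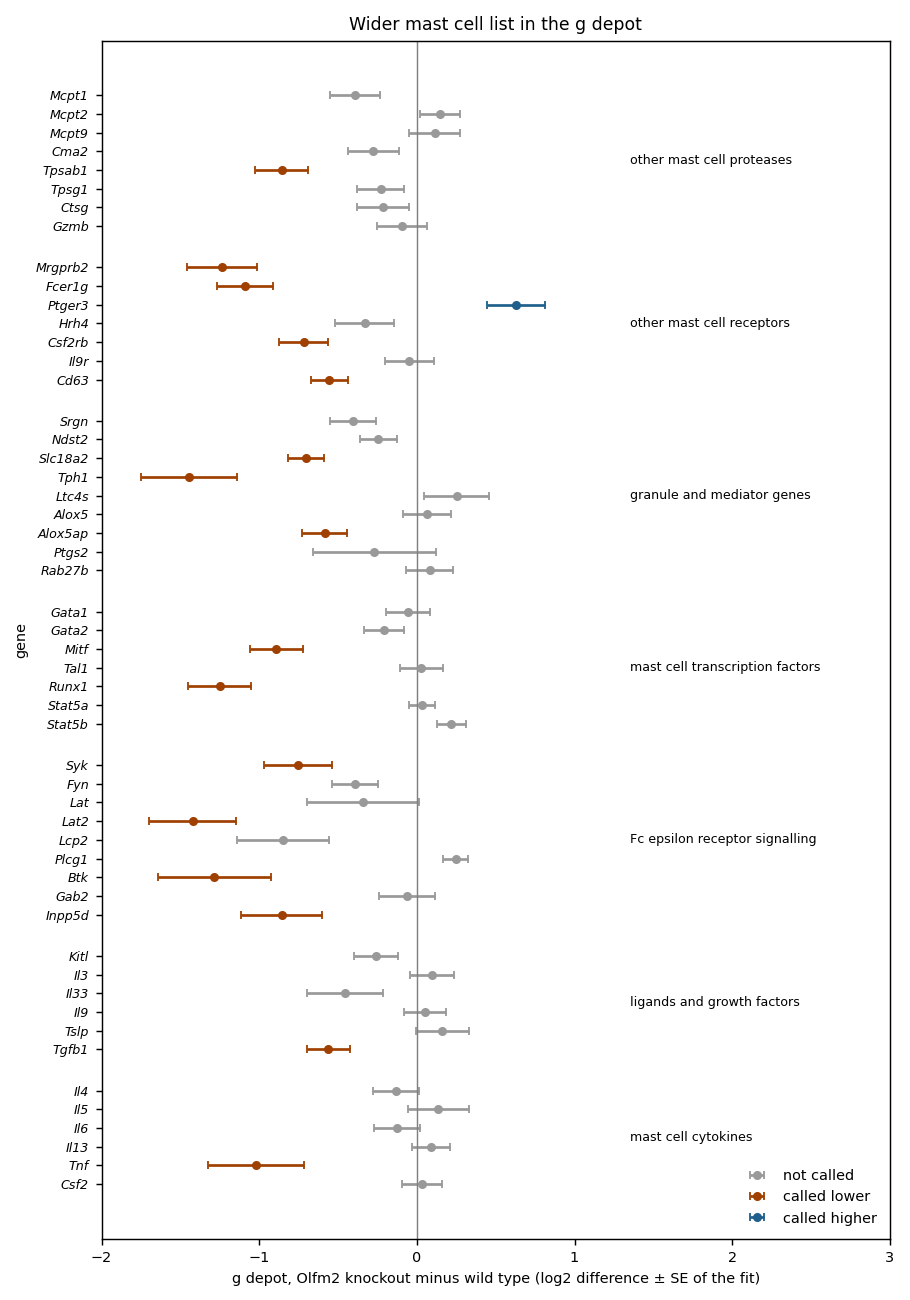
Difference in log2 signal between Olfm2 knockout and wild-type g samples (horizontal axis, dots with the SE of the fit) for the 52 measured genes of the wider mast cell list, grouped by role. Of these, 16 were called lower, 1 (Ptger3) higher and 35 were not called at a limma adjusted p under 0.05.

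Between depots, 18 of the 52 wider genes were higher and 2 (Ptger3 and Plcg1) lower in g than in sc in wild type, where 9.30% and 8.48% of all genes were. In knockout samples 2 were higher, Fcer1g (1.15) and Alox5ap (0.62), where 2.87% of all genes were. The difference of the knockout effect between depots was called for 0 of 52 with limma and had an unadjusted p under 0.05 for 18, where 0.0769% of all genes were called and 13% had such a p. It contains the g comparison, whose falls were known when the list was written.

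Cells that share genes with mast cells were looked at through their own markers. Basophils carry Fcer1a, Ms4a2 and Hdc too, and 2 of their 5 markers fell in g, where 6.27% of all genes fell. Their protease Mcpt8 stayed between 3.95 and 4.77 on all 20 arrays, above the negative control median on 1 of them. Cd200r3, which mast cells also carry, was 4.83 to 5.95 in wild-type and 4.11 to 4.75 in knockout g samples. The means of the other markers in wild-type and knockout g samples were 7.79 ± 0.18 and 7.39 ± 0.27 for Il3ra. They were 5.91 ± 0.20 and 5.52 ± 0.23 for Prss34, and 6.85 ± 0.11 and 6.73 ± 0.24 for Itga2b. Of the eosinophil and neutrophil markers 1 of 6 and 1 of 9 fell in g. These lists are small, and their counts were not tested against the share of all genes. The melanocyte markers, whose cells also use Kit and Mitf, had means of 4.41 to 4.54 and 0 of 6 called. The part of these cells in the results was not tested.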

How the data were processed

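Expression was measured on 20 arrays, 5 for each genotype in each depot. The authors used RMA for normalisation and limma, per the submitters' processing notes, and deposited 1 log2 value per probe and array. Their versions, and whether all arrays were normalised together, are not stated in the sources. Of 28846 probes 6704 control probes were left out, and 19572 of the other 22142 carry 1 gene symbol. For 55 genes with several probes (0 members) the brightest was kept, leaving 19505 genes, all matched to RefSeq of GRCm38.p6. Arrays give no counts, and their number limits the precision.

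Comparisons were fitted in R 4.3.3 with limma 3.58.1, 4 group means over all 20 arrays, no covariate. p-values are two-sided and adjusted by Benjamini-Hochberg over all genes, with genes under 0.05 called. Only called genes are said to rise or fall. SE is that of the fit, SD is over arrays, and intervals are at the 95% level. In the sc comparison, each member also had an exact permutation test. Differences are knockout minus wild type, or g minus sc. Named were all members, the 12 called wider-list genes with the smallest adjusted p, the 2 brightest of each sub-list and the 10 genes most alike; other genes named (the remaining called ones, the genes between Cma1 and Mcpt4, and those added to complete a sub-list) were chosen after their values were seen. The members and lists were chosen with earlier results of these data known. Of the 57 wider-list genes, 5 were not analysed here.

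On simulated data with 200 of 19505 genes changed, the sc fit recovered 58.5% at a fold of 1.5 (7 of 124 calls false) and 89% at a fold of 2, and the g fit 52.5% and 90%. The simulated noise was independent between genes. It lacked the hepatocyte, lymphocyte, muscle and macrophage transcripts that vary together on these arrays, so the shares may differ on the real data. Alternatives covered other fits, normalization, probe and dim-gene rules, marker means as covariates and leaving out arrays. Leaving out hepatocyte-high, lymphocyte-high or muscle-high arrays was chosen after seeing the data. The design text of the series names PKP2 for the sc arrays, while every label gives Olfm2, and the labels were used.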

Additional observations from a re-analysis of the deposited data

Results flagged for a closer look

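Among 132 groups of 5 arrays tested for a value far from the others, 2 stood out, where chance flags about 5% of groups. The Cpa3 signal of g300 KO was 6.36, and the nearest knockout g array was at 7.48. On the same array 8 of the 10 members had their lowest knockout g value, and Hpgds (8.43) and Kit (7.55) did not.

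The Hdc signal of g309 WT was 9.10, and the nearest wild-type g array was at 7.31. The mean of 9 neutrophil markers was 6.19 on that array, the highest of its group, whose median was 5.22, and Ptgs2, the inducible cyclooxygenase, was 7.74 there against 4.49 to 5.21 on the other wild-type g arrays.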

How the results depend on the processing

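All values in this part are counts of called genes or log2 differences; causes were not tested. The 132 genes called in sc became 233 with array weights, 84 with the hepatocyte mean as a covariate, 37 with the hepatocyte, lymphocyte and muscle means, 43 with the macrophage mean and 45 without the muscle-high arrays. The 2200 of the g comparison became 1147 with the hepatocyte mean, 1426 with 3 means, 1 with the macrophage mean and 43 without the hepatocyte-high arrays. For the difference between depots the 15 became 30 with array weights, 28 with trend and robust settings, 32 without dim genes, 1 with 3 means, 0 with the macrophage mean, and 1, 3 and 1 without the hepatocyte-high, lymphocyte-high and muscle-high arrays. The 3468 of the wild-type depot comparison became 1444 with 3 means and 2 with the macrophage mean, and the 806 of the knockout one 311 with only its 2 groups, 32 with the macrophage mean and 118 without the hepatocyte-high arrays. Leaving out 1 array gave 60 (without sc287WT) to 197 (without g317 KO) genes in sc, 1425 (without g307 WT) to 2357 in g, 4 to 41 for the difference, 2663 to 3770 and 530 to 845.

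Called members in sc were 1 (Hpgds) with only 2 groups, with array weights and without the hepatocyte-high arrays, and 0 to 1 when 1 array was left out. Wider genes called lower in g were 10 with the hepatocyte mean and 0 with the macrophage mean, where 643 and 0 of all genes were. With 1 array left out they were 12 to 18. In sc 1 was called without the hepatocyte-high arrays. Signs turned, all at adjusted p above 0.8, with the macrophage mean for Cma1 (0.13), Mrgprb1 (0.072) and Fcer1a (0.18) in sc and Alox5ap (0.050), Stat5a (-0.12) and Tnf (0.056) in g. With the 3 means they turned for Ms4a2 in sc (-0.10) and Gzmb in g (0.031), with the hepatocyte mean for Fcer1a in sc (0.048). Leaving out hepatocyte-high arrays turned Fcer1a in sc (0.058) and Gab2 (0.12) and Il13 (-0.16) in g, leaving out lymphocyte-high ones Kit in sc (0.033). With 1 array left out, the differences ran from -0.0035 to 0.14 for Ms4a2 and -0.12 to 0.045 for Fcer1a in sc, and from -0.0062 to 0.088 for Stat5a in g. The median r of all member pairs was 0.22 over sc arrays, 0.53 over g arrays, 0.54 without the hepatocyte-high arrays and 0.29 to 0.45 with 1 array left out.

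Numbers in the titles are shared by the depots, and a replicate block on that number called 140, 2206, 32, 3931 and 969 genes in the comparisons in the order above. The deviations of same-numbered arrays had correlations from -0.461 to 0.142 (median 0.0111), and for 3 of 10 numbers the partner array was the most alike. These values cannot tell whether a shared number means a shared mouse, which the labels do not state. The main fits were unpaired.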
